A study of Mus musculus with 10 samples.

Results

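This account follows 10 genes: 8 integrin chain genes (Itgal, Itgb2, Itga4, Itgb7, Itgae, Itgb1, Itga6 and Itgav) and 2 genes of proteins that switch integrins on from inside the cell (Fermt3 and Tln1). Each was read from the probe set that carries its symbol alone, keeping the brightest where a gene has several. For each of the 10, 1 such probe set was used. These are 10 of 19937 genes with a probe set of this kind, and 9 of the 10 were bright enough to be tested among 12670 genes. Itgae was left out of the test because its mean level lay under the filter.

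The samples were primary mediastinal T cell lymphomas of 10 mice on a C57BL/6 background, hybridised to 1 array per mouse. All 10 mice carried the NPM-ALK transgene, which encodes a fusion kinase known from anaplastic large cell lymphoma. In 5 mice WASP was missing (labelled WASP -/-, females lacking both copies or males lacking their only copy), and in 5 mice it was present (labelled WT). Lymphomas arose between 4 and 5 months of age, while neither the transgene's promoter nor the sex of each mouse is stated in those labels. The comparison asks which lymphoma transcripts differ when WASP, a promoter of branched actin assembly in blood cells, is missing.

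Integrins are adhesion receptors made of an alpha and a beta chain. On T cells they stay folded and weakly binding until signals from the T cell receptor or chemokine receptors recruit talin and kindlin to the tail of the beta chain, which opens the receptor and ties it to actin. Itgal and Itgb2 encode LFA-1, which binds ICAM proteins on other cells. Itga4 pairs with Itgb1 to bind VCAM-1 and fibronectin, or with Itgb7 to bind the gut vessel protein MAdCAM-1. Itgae pairs with Itgb7 and binds E-cadherin on epithelium. Itga6 with Itgb1 binds laminin, and Itgav with several beta chains binds vitronectin and the latent form of TGF-beta.

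All levels are log2 of the deposited intensity, and a probe set's level is not set against that of another probe set. On the linear scale array medians ran from 116.7 to 122.7, and precision is limited by how many arrays there are. Was was lower on all 5 WASP-deficient arrays, at 7.92 to 8.20, than on all 5 WASP-intact arrays, at 9.11 to 9.34. Of 7 T cell markers with a probe set, Cd3e (12.06 to 12.59), Thy1 (11.86 to 12.31), Lat and Cd247 were bright on all arrays, and Cd5 was dim throughout, at 6.57 to 7.38. The receptor chains Cd3d and Cd3g were low on some arrays: Cd3d was at 5.26 to 6.47 on the 3 Cd2-high arrays defined below, against 8.96 to 10.08 on the other 7, and Cd3g at 6.29 to 10.24, against 11.45 to 12.23. Xist, the RNA of the silenced X chromosome, was at 4.50 to 5.58 on the WASP-deficient arrays, against 11.52 to 11.90 on WASP-intact arrays 1, 2, 4 and 5 and 4.40 on WASP-intact array 3, so genotype and this marker of female cells ran together on 9 of 10 arrays. Kdm5d, a gene on the Y chromosome, was high wherever Xist was low. It read 8.20 to 9.19 in lymphomas without WASP and 8.68 in the low-Xist WASP-intact lymphoma. In the remaining WASP-intact lymphomas Kdm5d read 4.61 to 5.51. Cd2, which encodes a T cell adhesion receptor, stood at 11.18 to 11.52 on 3 arrays (WASP-deficient 1, WASP-intact 4 and 5), called Cd2-high below. Cd2 stood at 6.10 to 6.90 on the other 7, called Cd2-low. These sets come from a measured value and are no groups of the study, so levels in them are described without a test.

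The upstream stretches of 2 genes are shown because their values separated arrays without overlap, Fermt3 by genotype and Itgav by Cd2 set. Each is the 250 bases before the start site in the RefSeq promoter table of build GRCm38.p6, which held 6 of the 10 members. Fermt3 lies at chr19:7019470-7019719 on the minus strand and Itgav at chr2:83724147-83724396 on the plus strand. Motifs were searched on both strands. Capitals mark matches to the RUNX core TGTGGT, the only one of 5 searched motifs found in either stretch.
Fermt3: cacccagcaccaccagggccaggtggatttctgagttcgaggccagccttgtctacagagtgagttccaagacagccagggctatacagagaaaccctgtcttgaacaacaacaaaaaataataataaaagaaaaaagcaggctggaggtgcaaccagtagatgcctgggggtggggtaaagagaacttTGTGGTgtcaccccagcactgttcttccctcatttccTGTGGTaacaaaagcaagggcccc
Itgav: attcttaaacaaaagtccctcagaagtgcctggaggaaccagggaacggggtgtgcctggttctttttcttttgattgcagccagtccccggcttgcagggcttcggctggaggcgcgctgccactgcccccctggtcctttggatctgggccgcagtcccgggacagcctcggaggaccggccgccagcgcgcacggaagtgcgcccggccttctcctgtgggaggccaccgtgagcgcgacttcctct
The Fermt3 stretch held 2 RUNX matches, starting 61 and 24 bases before the start site, and the Itgav stretch held 0. At least 1 RUNX match occurred in 14.0% of 32851 promoters of the same length. The other motifs were the GC box GGGCGG (in 32.7% of all promoters) and CCGGAA, a narrow form of an ETS site (12.0%). The STAT motif TTCNNNGAA (7.02%) and the TATA box TATAAA (12.4%) were searched too. Neither stretch held any of these exact strings. Shorter or variant forms of the sites, ETS sites among them, were not searched. G and C made up 64.4% of the Itgav stretch, against a median of 52.4% over all promoters. A match in these letters is a description and does not show that a factor binds.

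No member passed the test of genotype. Among the 9 tested, 0 had a limma adjusted p under 0.05, where 1 of all 12670 genes did, Was itself (0.00789%). At an unadjusted p under 0.05, 3 of the 9 had lower values in WASP-deficient lymphomas (Fermt3, Tln1 and Itgal) and 0 had higher ones, where 1.33% of all genes were lower and 1.56% higher by that rule. This count of 3 was 1 when WASP-deficient array 4 or WASP-intact array 1, 2, 4 or 5 was left out, and 0 with the Xist level as a covariate. In that covariate fit the genotype difference rests largely on WASP-intact array 3, because genotype and Xist level nearly coincided. Lower values were seen for 5 of 9 members and for 51.1% of all genes. The median difference was -0.17 over the 9 members and -0.004 over all genes.

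**Figure D1:**
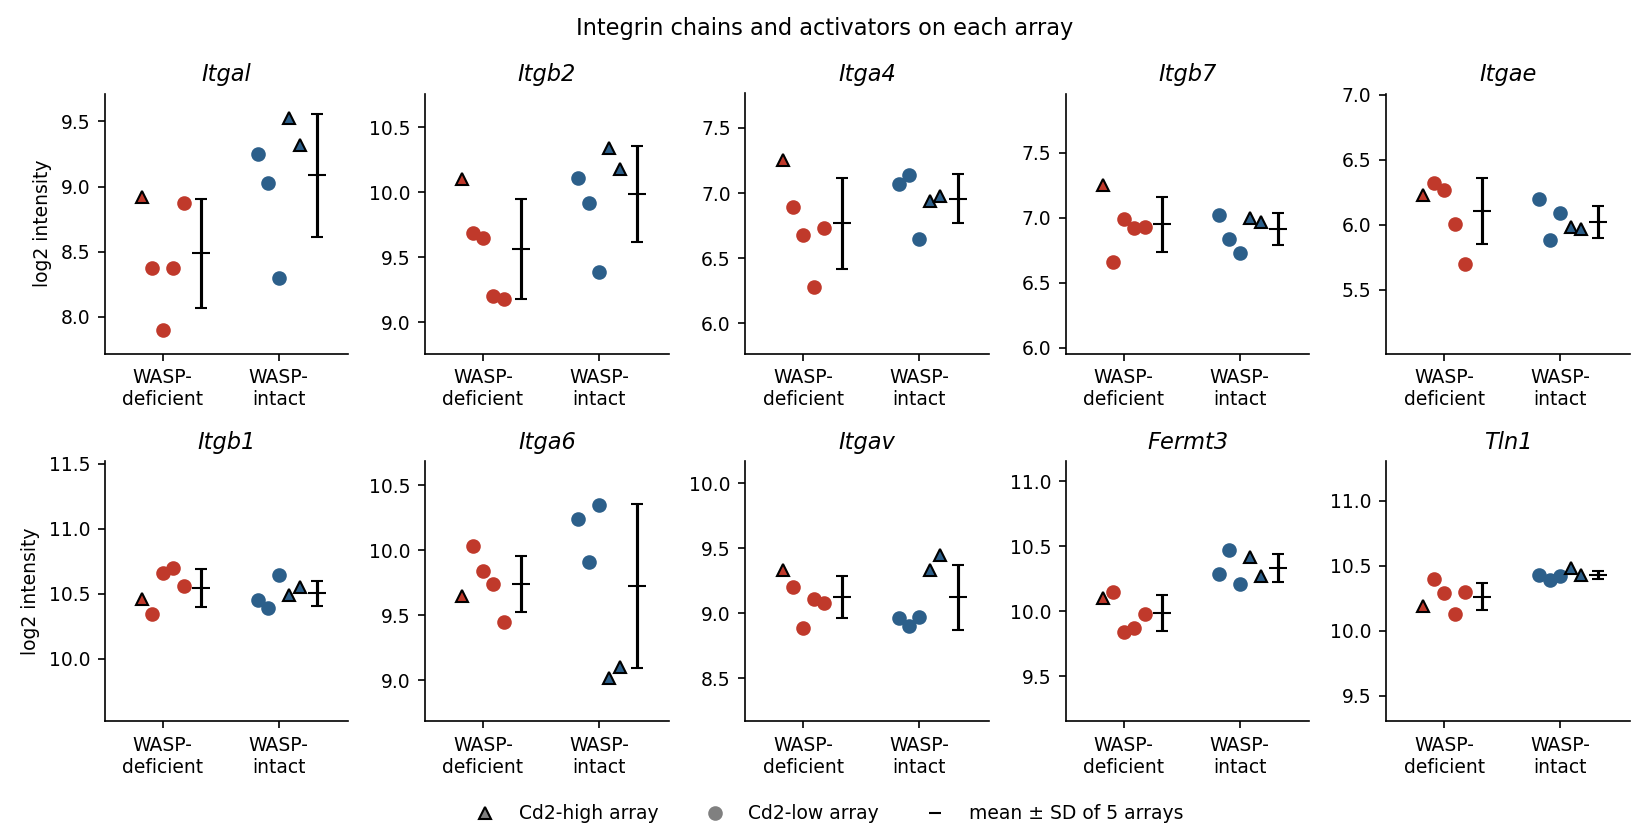
Log2 intensity of each gene on every array, with WASP-deficient arrays in red on the left and WASP-intact arrays in blue on the right of each panel; triangles are Cd2-high arrays, circles Cd2-low arrays, and the bar is the mean ± SD of 5 arrays. Every panel spans the same height of 2 log2 units, and Fermt3 is the one gene whose genotypes do not overlap.

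Fermt3 encodes kindlin-3, the kindlin of blood cells, which binds the beta chain tail and is needed for full integrin activation. Its level was 10.10, 10.15, 9.84, 9.87 and 9.98 on WASP-deficient arrays 1 to 5, against 10.29, 10.47, 10.21, 10.42 and 10.27 on WASP-intact arrays 1 to 5. All 5 WASP-deficient arrays lay below all 5 WASP-intact arrays, with 10.15 and 10.21 as the nearest values. The mean was 9.99 ± 0.14 in WASP-deficient and 10.33 ± 0.11 in WASP-intact lymphomas (SD, n = 5 each). Fermt3 differed on the log2 scale by -0.34 (SE 0.09, 95% interval -0.54 to -0.15), or 0.789 of the WASP-intact level, with a limma adjusted p of 0.999 over all genes. By unadjusted p, Fermt3 ranked 23 of 12670 genes. Genes with all WASP-deficient arrays below all WASP-intact arrays made up 0.245% of those tested, 31 in number, and Fermt3 was the single member among them.

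The Fermt3 difference had the same direction in all 19 alternatives, between -0.38 and -0.25, and passed in none. It was -0.36 (SE 0.12) among the 7 Cd2-low arrays and -0.25 (SE 0.15) with the Xist level as a covariate. WASP-intact array 3, the one with low Xist, had 10.21, and the highest WASP-deficient value was 10.15. The fit with Xist rests largely on this array, so sex and genotype cannot be told apart. Fermt3 is also made by myeloid cells and platelets. The 8 macrophage markers summed to an intensity of 5266 to 9227 on WASP-deficient and 5711 to 8080 on WASP-intact arrays, with higher values in WASP-deficient lymphomas for 6 of 7 tested. The platelet markers Pf4 and Ppbp also had higher values there, by 0.73 and 0.72, which did not pass. The part of these cells in the Fermt3 values was not tested. In bulk tissue fewer cells of a type and less RNA per cell cannot be told apart.

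Tln1 encodes talin, which links the beta chain tail to actin. Its level was 10.19, 10.40, 10.29, 10.13 and 10.30 on WASP-deficient arrays 1 to 5, against 10.43, 10.39, 10.42, 10.48 and 10.43 on WASP-intact arrays 1 to 5. The WASP-intact values were tightly grouped and all WASP-deficient values but that of array 2 lay below them. The log2 difference was -0.17 (SE 0.07, 95% interval -0.32 to -0.01, limma adjusted p = 0.999). Over 19 alternatives it lay between -0.20 and -0.13, always lower and never past the threshold. The span of Tln1 over all 10 arrays, 0.35, was wider than that of only 10.7% of tested genes.

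**Figure D2:**
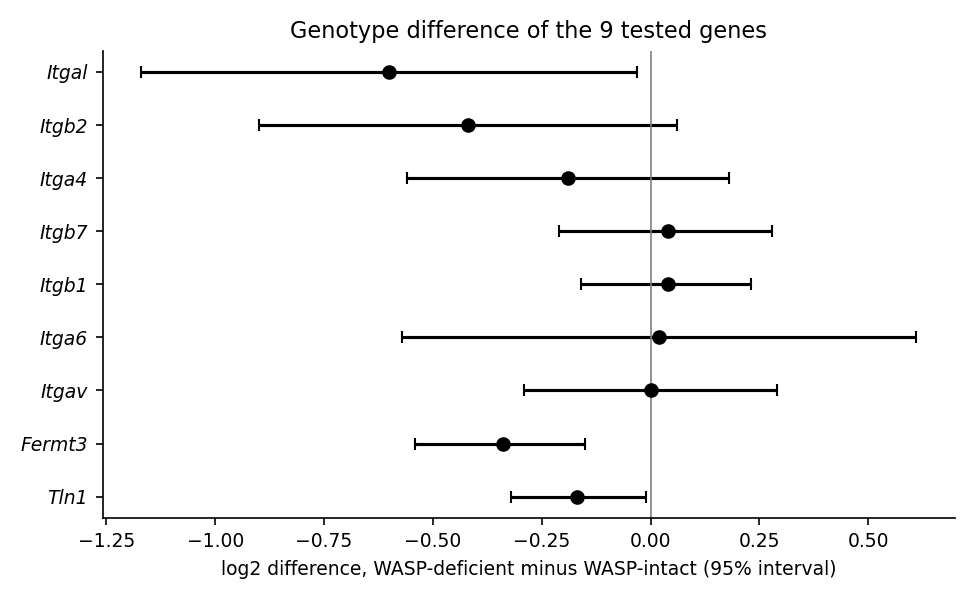
Log2 difference, WASP-deficient minus WASP-intact, of the 9 tested genes (points) with its 95% interval from limma (bars). The intervals of Itgal, Fermt3 and Tln1 lie below 0 before adjustment for multiple tests, and after it none passed.

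Itgal, the alpha chain of LFA-1, had the widest span of the members. Its level was 8.92, 8.37, 7.90, 8.37 and 8.87 on WASP-deficient arrays 1 to 5, against 9.25, 9.03, 8.30, 9.53 and 9.32 on WASP-intact arrays 1 to 5. The genotypes overlapped through WASP-intact array 3, whose 8.30 lay inside the WASP-deficient range, while the other 4 WASP-intact arrays lay above it. The mean was 8.49 ± 0.42 in WASP-deficient and 9.08 ± 0.47 in WASP-intact lymphomas (SD, n = 5 each). On the log2 scale Itgal differed by -0.60 (SE 0.26, 95% interval -1.17 to -0.03), or 0.66 of the WASP-intact level with an interval of 0.446 to 0.978 (limma adjusted p = 0.999).

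Itgb2, the beta chain of LFA-1, had 10.10, 9.69, 9.65, 9.20 and 9.18 on WASP-deficient arrays 1 to 5, against 10.11, 9.92, 9.39, 10.34 and 10.18 on WASP-intact arrays 1 to 5. WASP-intact array 3 was again the lowest of its genotype, and WASP-deficient array 1, which is Cd2-high, the highest of its own. The log2 difference was -0.42 (SE 0.22, 95% interval -0.90 to 0.06, limma adjusted p = 0.999).

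Both LFA-1 chains had their lowest WASP-intact value on the array with low Xist. With the Xist level as a covariate the difference was 0.04 for Itgal (SE 0.34) and 0.09 for Itgb2 (SE 0.30), so the direction turned for both. These values rest largely on WASP-intact array 3, because genotype and Xist level nearly coincided. Without WASP-intact array 3, and with no covariate, the difference was -0.79 for Itgal (SE 0.21) and -0.57 for Itgb2 (SE 0.19), each with a limma adjusted p of 0.963. The gene whose profile over the 10 arrays was nearest to Itgal was Kdm6a, an X-linked histone demethylase gene, with a root mean square difference of 0.15 between levels centred on each gene's mean. Kdm6a was at 8.84 to 9.51 on WASP-deficient arrays, against 9.73 to 10.16 on 4 WASP-intact arrays and 9.18 on WASP-intact array 3. LFA-1 is carried by other white blood cells too. The 8 macrophage markers summed to 5266 to 9227 on WASP-deficient and 5711 to 8080 on WASP-intact arrays. Of 7 tested, 1 had all Cd2-high arrays above all Cd2-low arrays and 0 had them below. It was Adgre1, at 8.41 to 8.67 on Cd2-high arrays, against 7.11 to 8.28 on Cd2-low arrays. The 7 T cell markers with a probe set summed to 17084 to 19981 on WASP-deficient and 16080 to 21058 on WASP-intact arrays, and all 4 neutrophil markers lay under the filter. Of the B cell markers Cd79a and Ms4a1 were under the filter too, while Cd79b was at 6.84 to 8.24, with a genotype difference of 0.26 that did not pass. The part of these cells in the LFA-1 values was not tested.

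Next to Kdm6a in likeness to Itgal was Polm, a DNA polymerase gene, at 0.23. The genes nearest to Itgb2 were Msn, which encodes the actin linker moesin, at 0.13, and Rgs14, a regulator of G protein signalling, at 0.14.

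**Figure D3:**
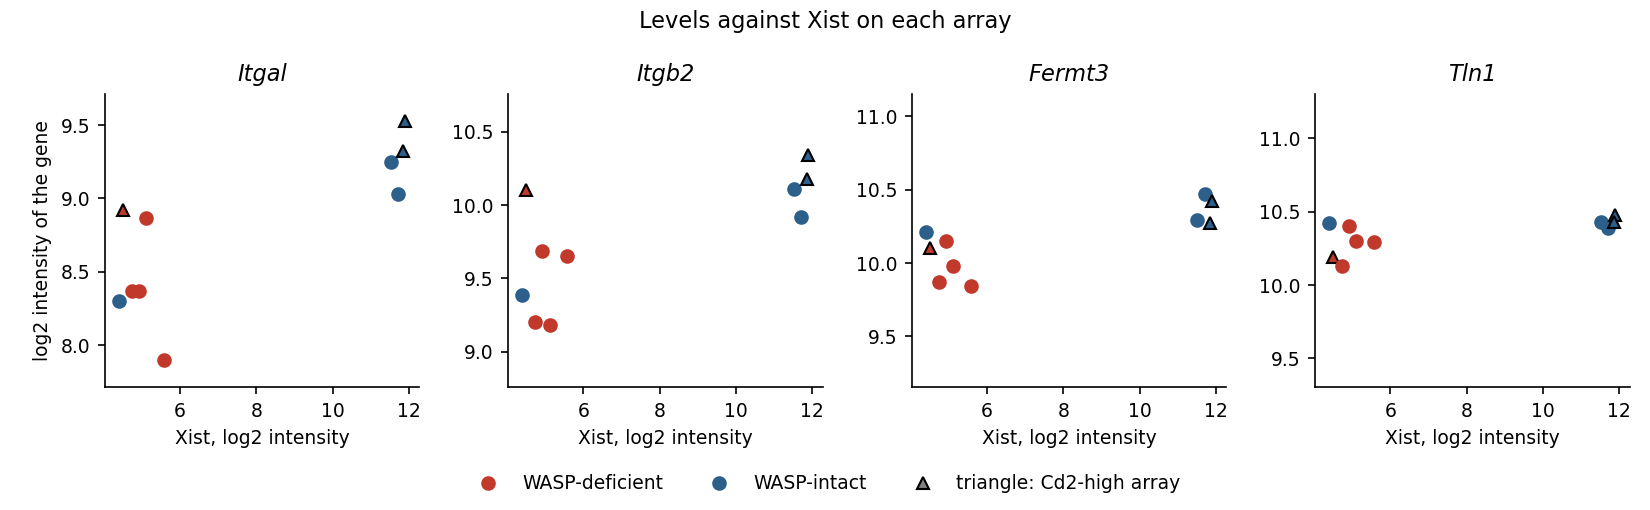
Log2 intensity of Itgal, Itgb2, Fermt3 and Tln1 (vertical) against that of Xist (horizontal) on each array, with WASP-deficient arrays in red, WASP-intact arrays in blue and Cd2-high arrays as triangles. WASP-intact array 3, the blue point at low Xist, lies among the WASP-deficient arrays for Itgal and Itgb2, and above them all for Fermt3 (10.21) and Tln1 (10.42). With only this array, sex and genotype cannot be told apart.

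Differences were smaller for the alpha 4 and beta 7 chains. Itga4 was at 6.28 to 7.25 on WASP-deficient arrays, against 6.65 to 7.14 on WASP-intact arrays, and the ranges overlapped widely. Its log2 difference was -0.19 (SE 0.17, 95% interval -0.56 to 0.18). Itgb7 was at 6.66 to 7.25 on WASP-deficient arrays, against 6.73 to 7.02 on WASP-intact arrays, with a difference of 0.04 (SE 0.11, 95% interval -0.21 to 0.28). WASP-deficient array 1 was the highest of all 10 for both genes, at 7.25 each. Itgae, under the filter, was at 5.70 to 6.32 on WASP-deficient arrays and 5.88 to 6.20 on WASP-intact arrays. With no filter its difference was 0.08, which did not pass.

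Itgb1, the common beta chain of matrix-binding integrins, was nearly level. It was at 10.46, 10.34, 10.66, 10.70 and 10.56 on WASP-deficient arrays 1 to 5, against 10.45, 10.39, 10.64, 10.49 and 10.55 on WASP-intact arrays 1 to 5. The log2 difference was 0.04 with a 95% interval of -0.16 to 0.23, so changes beyond 1.18 times the WASP-intact level or under 0.895 of it lay outside that interval. Its span of 0.36 exceeded that of 11.3% of tested genes, against 90.4% for Itgal.

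Itga6, a laminin receptor chain, had its lowest values on 2 WASP-intact arrays that are Cd2-high. Its level was 9.65, 10.03, 9.84, 9.74 and 9.45 on WASP-deficient arrays 1 to 5, against 10.24, 9.91, 10.35, 9.02 and 9.10 on WASP-intact arrays 1 to 5. The SD was 0.21 in WASP-deficient and 0.63 in WASP-intact lymphomas, where arrays 4 and 5, both Cd2-high, stood far below the other 3. The log2 difference by genotype was 0.02 (SE 0.27, 95% interval -0.57 to 0.61). Among the 7 Cd2-low arrays it was -0.40 (SE 0.16, limma adjusted p = 0.999), with 9.45 to 10.03 on 4 WASP-deficient arrays, against 9.91 to 10.35 on 3 WASP-intact arrays. With the Xist level as a covariate it was -0.57 (SE 0.38), in a fit that rests largely on WASP-intact array 3. Itga6 is also known from epithelium, and all 4 tested epithelial markers had higher values in WASP-deficient lymphomas, with Krt8 at 1.06 and Krt5 at 1.31, none past the threshold. The part of such cells in the Itga6 values was not tested. The genes nearest to Itga6 over the 10 arrays were Ifi30, a lysosomal thiol reductase gene, at 0.12, and Ly75, a receptor of dendritic and thymic epithelial cells, at 0.15.

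Itgav differed by 0.0014 between genotypes (SE 0.13, 95% interval -0.29 to 0.29) and was the single member that separated the Cd2 sets. It was at 9.33, 9.33 and 9.45 on the 3 Cd2-high arrays (WASP-deficient 1, WASP-intact 4 and 5), against 9.20, 8.89, 9.11 and 9.08 on WASP-deficient arrays 2 to 5 and 8.96, 8.90 and 8.97 on WASP-intact arrays 1 to 3. The gap between the sets was narrow, and the medians were 9.33 in the Cd2-high and 8.97 in the Cd2-low set. Of 9 tested members, 1 had all Cd2-high arrays above all Cd2-low arrays, where 14.4% of all genes did, and 0 had them all below, where 16.1% did. Of all genes, 30.5% had no overlap in either direction, and the count of 1 in 9 was not tested against that share. Among 4 fibroblast markers 2 separated the Cd2 sets in the same direction. Dcn was at 10.54 to 11.38 on Cd2-high arrays, against 9.03 to 10.41 on Cd2-low arrays. Col1a2 was at 8.69 to 9.54 on Cd2-high arrays, against 7.76 to 8.69 on Cd2-low arrays, with almost no gap. Col1a1 overlapped, at 9.22 to 10.28 on Cd2-high arrays, against 8.20 to 9.55 on Cd2-low arrays, and so did Col3a1. The 4 markers summed to 2855 to 4928 on Cd2-high arrays, against 1231 to 2785 on Cd2-low arrays. Their part in the Itgav values was not tested.

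For the other members the Cd2 sets overlapped, some of them barely. Itgb2 was at 10.10 to 10.34 on Cd2-high arrays, against 9.18 to 10.11 on Cd2-low arrays, so that only the value of WASP-intact array 1 reached into the Cd2-high range. Itgal was at 8.92 to 9.53 on Cd2-high arrays, against 7.90 to 9.25 on Cd2-low arrays, and its medians of 9.32 (Cd2-high) and 8.37 (Cd2-low) lay 0.95 apart. Itga6 ran the other way, at 9.02 to 9.65 on Cd2-high arrays, against 9.45 to 10.35 on Cd2-low arrays, with medians of 9.10 (Cd2-high) and 9.91 (Cd2-low). Only WASP-deficient array 5 of the Cd2-low set lay below the highest Cd2-high value. Itgb7 also overlapped little, at 6.97 to 7.25 on Cd2-high arrays, against 6.66 to 7.02 on Cd2-low arrays. Itga4 was at 6.94 to 7.25 on Cd2-high arrays, against 6.28 to 7.14 on Cd2-low arrays. The dim Itgae was at 5.97 to 6.23 on Cd2-high arrays, against 5.70 to 6.32 on Cd2-low arrays. Ranges were largely shared for Fermt3 (Cd2-high 10.10 to 10.42, Cd2-low 9.84 to 10.47), Tln1 (Cd2-high 10.19 to 10.48, Cd2-low 10.13 to 10.43) and Itgb1 (Cd2-high 10.46 to 10.55, Cd2-low 10.34 to 10.70). Over the 10 arrays Fermt3 spanned 0.62 log2 units, Itgb1 0.36 and Tln1 0.35, against a median span of 0.65 over the genes tested.

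**Figure D4:**
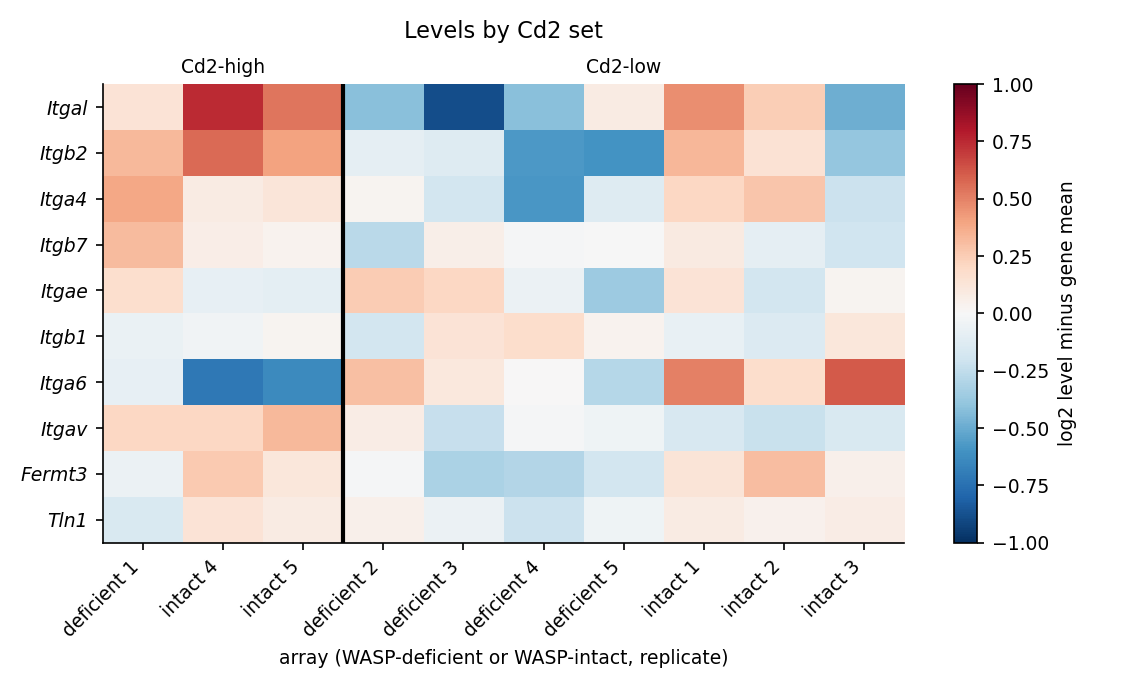
Log2 level of each gene (rows) on each array (columns) minus the gene's mean over the 10 arrays, with red above and blue below the mean, Cd2-high arrays left of the black line and Cd2-low arrays right of it. Itgav is red on all 3 Cd2-high arrays, Itga6 is blue on them, and Itgb1 and Tln1 stay pale throughout.

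Chains that pair in a receptor were compared over the 7 Cd2-low arrays, so that level differences between the Cd2 sets would not enter. Among 6 pairs none passed after Benjamini-Hochberg adjustment in exact two-sided permutation tests. Itgal and Itgb2 had a Pearson r of 0.44 (exact permutation p = 0.312, adjusted 0.853) and a Spearman rho of 0.50 (exact permutation p = 0.267, adjusted 0.801). Without the 2 arrays farthest from the Itgal median, WASP-intact 1 and 2, r was -0.68, so the sign rested on them. Those are the Cd2-low arrays with high Xist (11.52 and 11.71), so r over the 7 arrays cannot be told apart from a difference by genotype or sex. Itga4 and Itgb1 ran in opposite directions, with r = -0.84 (exact permutation p = 0.0163, adjusted 0.0978) and rho = -0.86 (exact permutation p = 0.0238, adjusted 0.143), and r was -0.79 on the 5 arrays left. On the Cd2-low arrays Itga4 was dim, at 6.28 to 7.14 with the filter at 6.35, and Itgb1 was nearly level, at 10.34 to 10.70. That limits what this r can show. The other 4 pairs had r between -0.19 and -0.05. Without the 2 farthest arrays r was 0.55 for Itgae and Itgb7, 0.20 for Itga4 and Itgb7, 0.15 for Itgav and Itgb1 and -0.66 for Itga6 and Itgb1. These values thus depended on the 2 arrays left out, and the sign changed for all but Itga6 and Itgb1. The permutations shuffled values over both genotypes. With 4 WASP-deficient and 3 WASP-intact arrays among the 7, no value within a genotype is given.

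The other genes of the integrin pathway gave no call by genotype either. Of 68 genes in 6 lists, 66 had a probe set and 59 were tested, 0 passed the test of genotype, and 2 had an unadjusted p under 0.05, where 2.89% of all genes did. These 2 were Bcar1, an adhesion scaffold gene (0.37), and Rasgrp2 (-0.32), which encodes the Rap1 activator CalDAG-GEFI and is named here after its value was seen. The median difference over the 59 was -0.02.

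The inside-out signalling list holds genes that carry the activating signal to talin and kindlin, and further talin and kindlin genes. Lower values were seen for 12 of 13 tested, against 51.1% of all genes, with a median of -0.18 and 0 past the threshold. Several lay near 0, such as Rapgef1 (-0.02), Rap1a (-0.05) and Rap1b (-0.05). The largest differences were -0.71 for Fyb (SE 0.95) and -0.61 for Skap1 (SE 0.29), which encode adaptors between the T cell receptor and integrins. Rassf5, which encodes the Rap1 effector RAPL, was at -0.34 (SE 0.17). In this list 6 of 13 genes had all Cd2-high arrays above all Cd2-low arrays, a share not tested against the 14.4% of all genes. Fyb was at 11.54 to 11.88 on Cd2-high arrays, against 7.30 to 10.31 on Cd2-low arrays. Stk4, the kinase gene MST1, was at 11.05 to 11.31 on Cd2-high arrays, against at most 10.56 on Cd2-low arrays. Skap1 was at 10.41 to 10.70 on Cd2-high arrays, against 8.91 to 9.96 on Cd2-low arrays. Tln2, the second talin gene, ran the other way, at 7.33 to 7.49 on Cd2-high arrays, against 7.97 to 8.57 on Cd2-low arrays. Because 2 of 3 Cd2-high arrays are WASP-intact, values by Cd2 set and by genotype are not independent.

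Among 6 genes that restrain integrin activation 0 passed, with Flna, which encodes the tail-binding filamin A, at -0.31 (SE 0.31), Rap1gap, which turns Rap1 off, at 0.18 (SE 0.32) and Dok1 at -0.11 (SE 0.11). Flna was at 10.72 to 11.07 on Cd2-high arrays, against 9.50 to 10.38 on Cd2-low arrays, while Rap1gap (Cd2-high 6.26 to 6.65, Cd2-low 7.34 to 7.71) and Sipa1, another Rap1 inhibitor (Cd2-high 9.47 to 9.60, Cd2-low at least 9.88), had lower values on Cd2-high arrays. Of 13 adhesion site genes 0 passed. Actn1, the actin crosslinker alpha-actinin 1, was at -0.36 (SE 0.28) by genotype, and at 12.18 to 12.36 on Cd2-high arrays, against 10.79 to 11.70 on Cd2-low arrays. Lims1, a partner of integrin-linked kinase, was at -0.21 by genotype, and at 10.06 to 10.23 on Cd2-high arrays, against 9.42 to 9.89 on Cd2-low arrays. Pxn, the scaffold paxillin, was at 9.85 to 10.09 on Cd2-high arrays, against 10.61 to 10.79 on Cd2-low arrays. These genes were named for their wide gaps between the Cd2 sets. Of the 6 inhibitors, 1 had all Cd2-high arrays above and 2 below. Of the 13 adhesion site genes 3 had them above and 2 below, where 14.4% of all genes were above and 16.1% below.

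**Figure D5:**
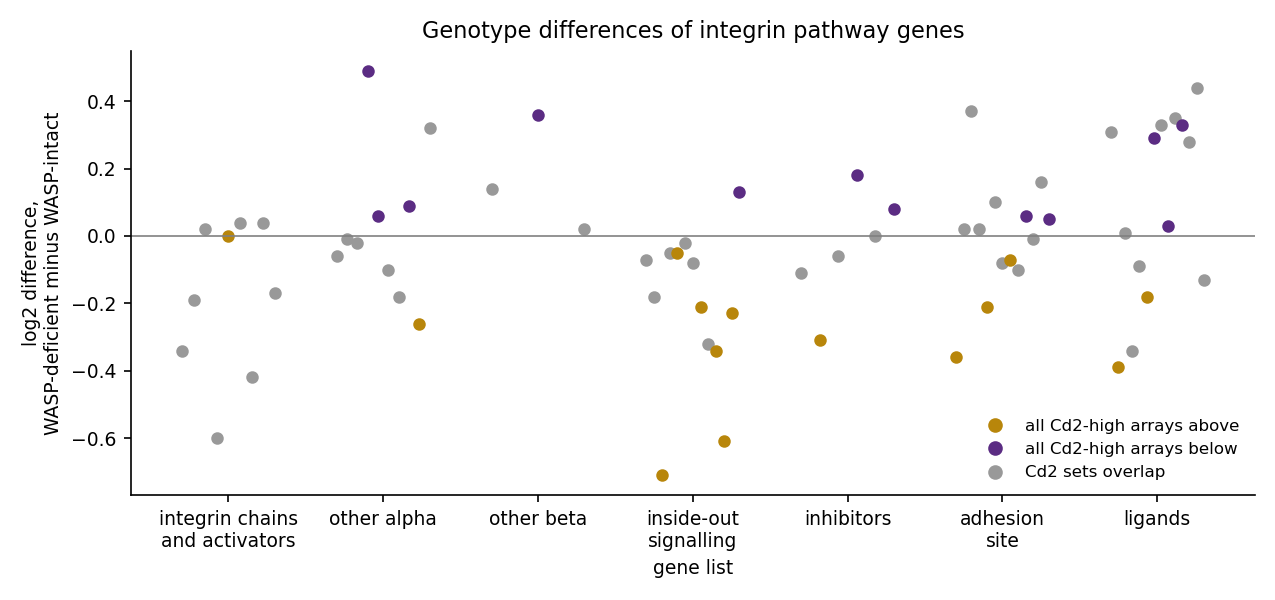
Log2 difference by genotype, WASP-deficient minus WASP-intact, of each tested gene (points) in 7 gene lists (horizontal), with ochre for genes whose Cd2-high arrays all lie above the Cd2-low arrays, purple for all below and grey for overlap. In the inside-out signalling list 12 of 13 points lie below 0, several of them close to it, and 6 are ochre. Of all genes tested, 51.1% had lower values and 14.4% had all Cd2-high arrays above.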

How the data were processed

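RNA of 10 primary lymphomas, 5 WASP-deficient and 5 WASP-intact, was measured on 1 array each, with groups and replicate numbers from the sample titles. The deposited intensities were made by the authors with RMA, per the submitters' processing notes, and are on a linear scale from 3.309 to 15587.9. The program that ran it and the build behind its annotation are not stated in the labels. RMA equalises the arrays' distributions, so array-wide differences in RNA amount can no longer be read. Here log2 of each value was taken. Names came from the platform's annotation table (21640 of 34760 probe sets had 1 symbol), and gene IDs were looked up in RefSeq for GRCm38.p6.

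Probe sets with a mean under the 40th percentile (log2 6.35) were left out and the brightest was kept per gene, which left 12670 genes. The difference, WASP-deficient minus WASP-intact, was fitted with limma 3.58.1 under R 4.3.3 (lmFit, then eBayes, without covariates) with Benjamini-Hochberg adjustment over all genes and a threshold of 0.05. By the labels each replicate is a separate mouse. The fit was tested on simulated data. The 10 genes, the pathway and marker lists and the Cd2 cut at 9 were chosen with earlier results of these data known.

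Besides the 10 genes, Was, Cd2, Xist and Kdm5d served as checks. In each pathway list every gene past the threshold, the 3 of largest difference by genotype and the 3 with the widest gap between Cd2 sets were to be named, and for genes spanning at least 1 log2 unit the 2 of nearest profile. Alternatives were no filter, a filter at the 60th percentile, means of probe sets, median-centred arrays, a trended robust fit, a replicate block, Xist as covariate, the Cd2-low arrays alone, each array left out and, chosen after seeing the data, the Cd2 set as covariate. Same-numbered arrays did not deviate together (r from -0.714 to 0.366), so numbers were not taken as pairs. Plots were made in Python 3.11.15 using matplotlib 3.10.9.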

Additional observations from a re-analysis of the deposited data

How the results depend on the processing

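None of the 10 genes, and none of the other integrin pathway genes, passed the limma test of genotype under any alternative run. The count of all genes past the threshold was 1 in the reported fit, 0 with the replicate block, 0 with the Xist level as a covariate and 2 without the Cd2-high arrays. It lay between 1 and 4 when single arrays were left out, with 4 without WASP-intact array 3 and 2 without WASP-deficient array 1. Fermt3 and Tln1 kept their direction under all 19 alternatives each. With the Xist level as a covariate the direction turned for Itgal (0.04), Itgb2 (0.09), Itga4 (0.06), Itgb1 (-0.07) and Itga6 (-0.57). Genotype and Xist level nearly coincided, so these values rest largely on WASP-intact array 3. Itga6 also turned with the Cd2 set as a covariate (-0.12) and without the Cd2-high arrays (-0.40). Leaving out single arrays gave values on both sides of 0 for Itgb1 (-0.0013 to 0.09), Itgb7 (-0.04 to 0.11), Itga6 (-0.16 to 0.18) and Itgav (-0.06 to 0.08). The causes were not tested. The replicate numbers do not pair the arrays: with the replicate block 0 members passed, Itgal was at -0.60 (SE 0.14) and Fermt3 at -0.34 (SE 0.09), and 1 of 10 arrays deviated most like the one of its own number. Itgav was the single member without overlap between the Cd2 sets under each alternative run for that count. Itgae was dim, and the levels of Itga4 and Itgb7 lay close to the filter.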

Other observations

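Integrin chains outside the 10 genes, and the ligands that integrins bind, gave no call by genotype. Some of these genes separated the Cd2 sets, as did 30.5% of all genes tested, and their counts are near that share. Itga3, a laminin receptor chain, was at 6.33 to 6.76 on Cd2-high arrays, against 7.81 to 8.37 on Cd2-low arrays, and its genotype difference was 0.49 (SE 0.41). Itga5, the fibronectin receptor chain, was at 7.49 to 8.02 on Cd2-high arrays, against 8.31 to 8.86 on Cd2-low arrays. Itgb4, the partner of Itga6 in epithelium, was at 6.95 to 7.75 on Cd2-high arrays, against 7.95 to 8.69 on Cd2-low arrays, with a genotype difference of 0.36 (SE 0.28). Itgam, a chain of myeloid cells, was at 7.74 to 8.04 on Cd2-high arrays, against 6.42 to 7.58 on Cd2-low arrays. Itgax, a chain of dendritic cells, had a genotype difference of 0.32 (SE 0.19), Itgb3 of 0.14 and Itgb5 of 0.02. Of 10 other alpha chains tested, 1 had all Cd2-high arrays above and 3 had them below the Cd2-low arrays, and of 3 other beta chains 0 were above and 1 was below, where 14.4% of all genes were above and 16.1% below.

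Among 14 tested ligand genes, 9 had higher and 5 lower values in WASP-deficient lymphomas, with a median of 0.15 and 0 past the threshold. By Cd2 set 2 of the 14 lay above and 3 below without overlap. The vessel and stroma ligand Vcam1 was at 0.44 (SE 0.31), fibronectin (Fn1) at -0.39 (SE 0.39) and the laminin chain Lamc1 at 0.35 (SE 0.28). The laminin chain Lama5 was at 6.92 to 7.09 on Cd2-high arrays, against 8.23 to 8.73 on Cd2-low arrays. Lamb2, another laminin chain, was at 8.60 to 8.77 on Cd2-high arrays, against 9.10 to 9.46 on Cd2-low arrays. Mfge8, a ligand of alpha v integrins, was at 9.75 to 9.86 on Cd2-high arrays, against 10.58 to 11.09 on Cd2-low arrays. None of these values was tested between the Cd2 sets.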
